A study of Mus musculus with 8 samples.

Results

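Antibody genes were followed in the livers of 8 mice, as 8 genes named beforehand: the light-chain constant genes *Igkc*, *Iglc1* and *Iglc2*, the heavy-chain constant genes *Ighm*, *Igha*, *Ighg2c* and *Ighg2b*, and *Jchain*. Genes were matched by symbol, and 7 of the 8 were found among the 14506 genes of the table, while *Iglc2* was not analysed here. *Igkc* was chosen by its higher normalized count in the mutant livers of this same experiment, so its values below are a description and carry no test, and the others were chosen as products of plasma cells. Whole liver tissue came from 4 *Rragc*+/+ mice, of which 3 were 3 months and 1 was 2.5 months old, and from 4 *Rragc* S74N/+ mice, of which 2 were 3 months, 1 was 2.5 months and 1 was 2 months old. *Rragc* encodes RagC, a GTPase that signals nutrient sufficiency to the kinase complex mTORC1, and the S74N change was knocked into the endogenous gene of every cell by CRISPR editing on a C57BL/6 background, with silent changes beside it. The mutant mice were heterozygous, since homozygotes are not viable. The deposited values cannot check the genotype, because a substitution does not remove the transcript. Where the livers are named by replicate, the number follows the order of the samples and pairs no mice.

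Plasma cells are the end stage of B cell differentiation and fill their cytoplasm with messenger RNA for a single light chain and a single heavy chain. The heavy-chain constant gene sets the antibody class, IgM from *Ighm*, IgA from *Igha* and IgG from the *Ighg* genes, and a B cell changes class by deleting the DNA between switch regions. J chain joins IgM and IgA into polymers that the polymeric immunoglobulin receptor can carry, and the mouse liver is known to receive IgA plasma cells from the gut and to pass IgA into bile. In these whole-tissue libraries a higher or lower antibody transcript level could come from more or fewer plasma cells or from more or less RNA in each, and these cannot be told apart.

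In GRCm38 with the GENCODE M21 annotation, the heavy-chain constant genes lie in 1 cluster on the minus strand of chromosome 12, with *Ighm* at chr12:113418558-113422730, *Ighg2b* at chr12:113302965-113307933, *Ighg2c* at chr12:113285325-113288932 and *Igha*, the last of the row, at chr12:113254830-113260236. *Igkc* is on the plus strand at chr6:70726435-70726966. It sits within the span of the longer transcript *Gm30211* on the same strand but shares 0 of its 532 exon bases with it. *Iglc1* is at chr16:19061618-19062071 and *Iglc2* at chr16:19198396-19200351, both on the minus strand, and *Jchain* is on the minus strand at chr5:88519809-88527891. Only constant regions were read here: 8 of the 13 annotated immunoglobulin constant genes and 0 of the 218 variable genes were in the table, so nothing can be said of clones.

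Reads from near-identical copies could be divided between genes or dropped, which bears on the lambda genes and on the IgG2 pair. The last 90 coding bases of the constant region, next to the 3′ end from which these libraries are read, are shown for the light chains to make this visible, taken from the GENCODE M21 transcripts and written 5′ to 3′ on the sense strand. Capitals mark bases that differ from *Iglc1* at the same place, and *Igkc* is shown without marking.
Iglc1: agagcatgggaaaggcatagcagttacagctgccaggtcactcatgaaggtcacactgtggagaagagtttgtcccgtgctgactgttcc
Iglc2: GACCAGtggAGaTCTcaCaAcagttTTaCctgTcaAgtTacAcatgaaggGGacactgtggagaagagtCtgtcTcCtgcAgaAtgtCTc
Iglc3: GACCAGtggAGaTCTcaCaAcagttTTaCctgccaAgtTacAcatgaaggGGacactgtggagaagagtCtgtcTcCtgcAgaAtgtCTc
Igkc: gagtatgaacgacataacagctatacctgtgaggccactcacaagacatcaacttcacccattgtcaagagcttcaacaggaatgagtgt
These stretches lie at chr16:19061755-19061844 for *Iglc1*, chr16:19198539-19198628 for *Iglc2*, chr16:19065368-19065457 for *Iglc3* and chr6:70726665-70726754 for *Igkc*. *Iglc2* differed from *Iglc1* at 29 of the 90 bases. *Iglc2* and *Iglc3*, neither of them analysed here, matched each other at 96.2% of the 315 aligned coding bases and shared 10.5% of their windows of 50 bases, whereas *Iglc1* shared no such window with either.

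The same stretch of the IgG2 genes is shown because *Ighg2c* is the gene whose level set the genotypes apart below. Capitals mark the bases of *Ighg2c* that differ from *Ighg2b*.
Ighg2b: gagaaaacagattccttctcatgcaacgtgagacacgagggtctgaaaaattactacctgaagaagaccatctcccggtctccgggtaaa
Ighg2c: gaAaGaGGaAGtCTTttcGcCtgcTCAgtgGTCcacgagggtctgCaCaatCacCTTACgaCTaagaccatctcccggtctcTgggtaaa
They lie at chr12:113306392-113306481 and chr12:113287392-113287481. These differed at 28 of the 90 bases, and the whole coding sequences matched at 85.6% of positions, with 5.26% of the windows of 50 bases in *Ighg2b* also present in *Ighg2c*. Every other window held at least 1 difference.

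Levels are normalized read counts, that is, reads divided by a size factor for each liver. Because the library kit reads 3′ ends, 1 transcript gives reads independently of its length, and levels of different genes were compared on this scale without division by length. In *Rragc*+/+ livers the order by mean was *Igha*, *Igkc*, *Ighm*, *Ighg2b*, *Jchain*, *Ighg2c* and *Iglc1*, and the ranges of all neighbours in this order overlapped. In *Rragc* S74N/+ livers it was *Igkc*, *Igha*, *Ighm*, *Ighg2b*, *Ighg2c*, *Jchain* and *Iglc1*, and among neighbours only *Ighg2c* and *Jchain* had ranges that were apart. *Igha* exceeded *Igkc* in 4 of 4 *Rragc*+/+ livers and *Igkc* exceeded *Igha* in 4 of 4 *Rragc* S74N/+ livers, an exchange that includes the difference in *Igkc* by which that gene was chosen.

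**Figure D1:**
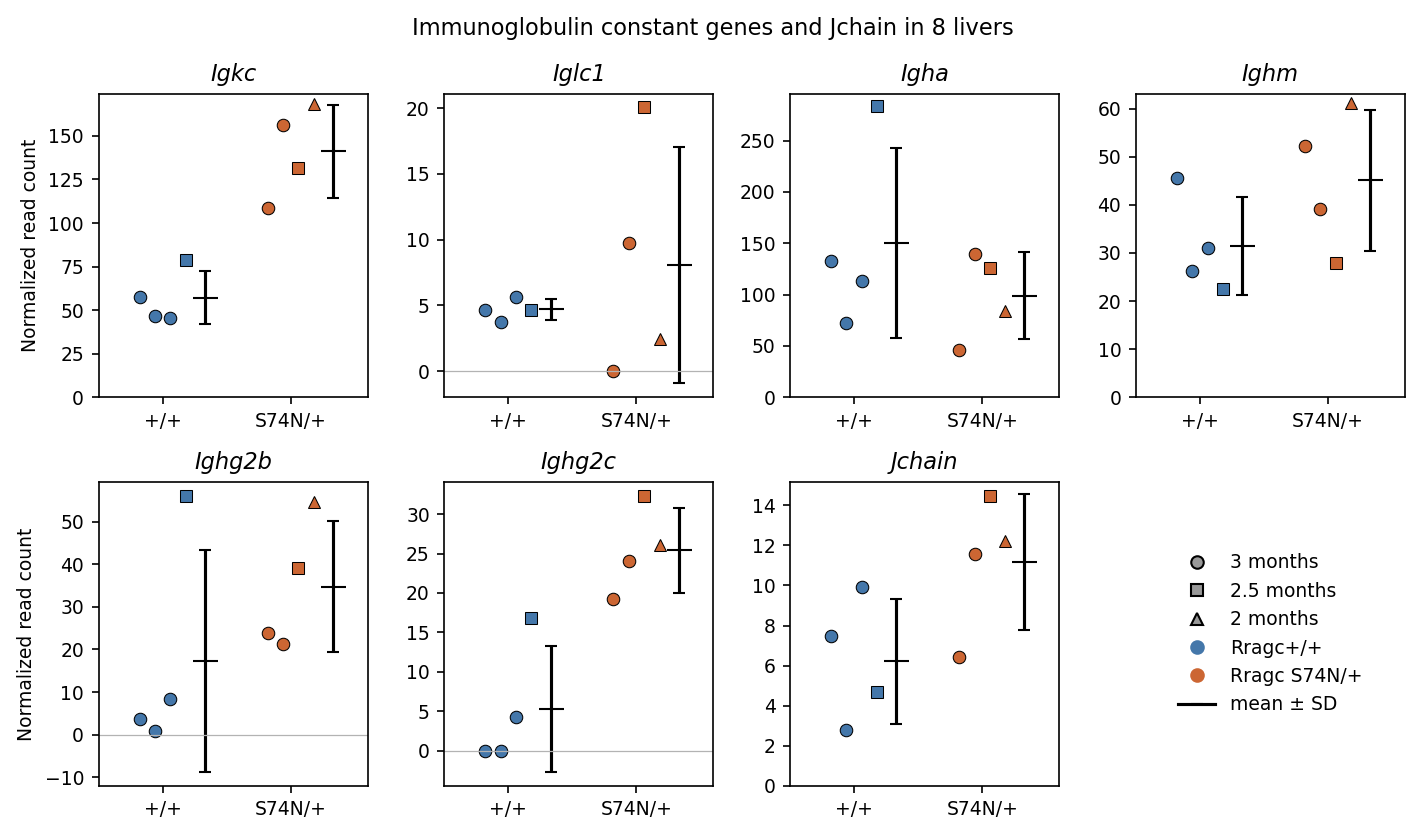
Normalized read counts (y axis, linear, a separate scale in each panel) of the 7 genes in each liver, by genotype; circles, squares and triangles are mice of 3, 2.5 and 2 months, and the bar beside each group is the mean ± SD (n = 4). *Igkc* and *Ighg2c* are the panels in which every *Rragc* S74N/+ liver lies above every *Rragc*+/+ liver.

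Among the light chains, *Igkc*, the kappa constant gene used by most mouse antibodies, was read at 57.8, 46.8, 45.3 and 78.5 normalized counts in *Rragc*+/+ replicates 1 to 4. The *Rragc* S74N/+ replicates 1 to 4 gave 108, 156, 131 and 168. The lowest mutant liver thus lay above the highest wild-type liver, which is the difference the gene was chosen for. The means were 57.1 ± 15.3 and 141 ± 26.6 (SD, n = 4 each), a difference of 1.31 ± 0.26 (SE) in log2(normalized count + 1), and the reads behind them numbered 32 to 206 per liver.

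*Iglc1*, a lambda constant gene, was close to the detection limit. It gave 4.66, 3.74, 5.66 and 4.67 normalized counts in the *Rragc*+/+ livers and 0, 9.78, 20.1 and 2.45 in the *Rragc* S74N/+ livers, from 0 to 18 reads per liver. Mutant livers held both the lowest and the highest value. The means were 4.68 ± 0.783 and 8.07 ± 9.01 (SD, n = 4 each), and the genotypes did not differ beyond their spread (exact two-sided permutation test, p = 0.943). *Iglc1* made up 7.90% ± 2.31 of the reads of *Igkc* and *Iglc1* together in wild-type and 5.14% ± 5.95 in mutant livers (SD, n = 4 each), so kappa was the more abundant of these 2 light chains in both.

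The question for the heavy chains was which antibody class accompanied the higher kappa level. Of the 11174 genes tested, those averaging 10 or more normalized counts, 1 gene (0.00895%) passed an adjusted p of 0.05 in limma, the fall of *Gpx3*, a secreted glutathione peroxidase. The 4 heavy-chain genes were among the tested genes and 0 of them passed.

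*Igha*, the IgA heavy chain, was the most read of the heavy chains in 7 of the 8 livers. The *Rragc*+/+ livers gave 132, 72.0, 113 and 284 normalized counts and the *Rragc* S74N/+ livers 45.9, 140, 126 and 84.0. The groups overlapped widely, with *Rragc*+/+ replicate 4 the highest of all livers and *Rragc* S74N/+ replicate 1 the lowest. The means were 150 ± 92.6 and 98.8 ± 42.5 (SD, n = 4 each), with a log2 difference of -0.54 ± 0.42 (SE; limma adjusted p = 0.846).

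*Ighm*, the heavy chain of IgM and of the antigen receptor on naive B cells, was read at 45.7, 26.2, 31.1 and 22.4 in *Rragc*+/+ and at 52.3, 39.1, 27.9 and 61.2 in *Rragc* S74N/+ livers. These ranges also overlapped. The log2 difference was 0.50 ± 0.35 (SE; limma adjusted p = 0.846) between means of 31.4 ± 10.2 and 45.1 ± 14.7 normalized counts (SD, n = 4 each).

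*Ighg2c* is the IgG2 gene that C57BL/6 mice carry in place of *Ighg2a*, a class typical of responses driven by interferon gamma. It gave 0, 0, 4.24 and 16.8 normalized counts in *Rragc*+/+ livers and 19.3, 24.0, 32.3 and 26.1 in *Rragc* S74N/+ livers. Every mutant liver exceeded every wild-type liver, as in 1.30% of all tested genes (145 of 11174 had all mutant livers higher, and 2.94% were apart in either direction). The reads numbered 21 in the 4 *Rragc*+/+ livers and 109 in the 4 *Rragc* S74N/+ livers. The means were 5.27 ± 7.96 and 25.4 ± 5.41 (SD, n = 4 each), a log2 difference of 3.06 ± 0.89 (SE). The gene reached the mean of 10 needed for testing only through the mutant group, so a difference was built into its entry, and even so it did not pass (limma adjusted p = 0.846). Its log2 difference depends on the pseudocount, from 1.84 with 5 added to 4.76 with 0.1 added. The 2 livers at 0 reads allow up to 2.80 and 2.81 normalized counts, the value of 3 reads there, from counting error alone.

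*Ighg2b*, the neighbouring IgG2 gene, was read at 3.73, 0.935, 8.49 and 56.1 in *Rragc*+/+ and at 23.9, 21.3, 39.0 and 54.7 in *Rragc* S74N/+ livers. A single wild-type liver, replicate 4, reached the mutant range and was the highest of all 8. The log2 difference was 1.99 ± 0.83 (SE; limma unadjusted p = 0.0323, where 5.17% of all tested genes had one under 0.05; adjusted p = 0.846) between means of 17.3 ± 26.0 and 34.7 ± 15.4 normalized counts (SD, n = 4 each). Without *Rragc*+/+ replicate 4 the genotypes were apart, as in 2.35% of all tested genes without that liver, and the log2 difference was 2.91. On the recovered reads with all livers, edgeR gave 0.99 and DESeq2 1.01. The remaining heavy-chain genes in the table, *Ighd* and *Ighg1*, had means under 10, at 4.23 ± 4.96 and 5.86 ± 4.76 in wild-type and 6.07 ± 2.44 and 3.20 ± 3.26 in mutant livers (SD, n = 4 each), and their ranges overlapped.

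Shares within a liver do not depend on its size factor, so the composition of the heavy-chain reads was compared next, over *Igha*, *Ighm*, *Ighg2b* and *Ighg2c*. *Igha* took 72.8% of these reads in *Rragc*+/+ replicate 1 (142 of 195 reads, 95% exact binomial interval 66.0 to 78.9), 72.6% in replicate 2 (77 of 106, 63.1 to 80.9), 72.1% in replicate 3 (80 of 111, 62.8 to 80.2) and 74.9% in replicate 4 (304 of 406, 70.4 to 79.0). In *Rragc* S74N/+ livers it took 32.5% in replicate 1 (50 of 154, 25.2 to 40.5), 62.3% in replicate 2 (157 of 252, 56.0 to 68.3), 55.9% in replicate 3 (113 of 202, 48.8 to 62.9) and 37.2% in replicate 4 (103 of 277, 31.5 to 43.2). All 4 mutant shares were lower than the wild-type shares and more scattered. The means were 73.1% ± 1.23 and 47.0% ± 14.4 (SD, n = 4 each), a difference of -26.1 percentage points. An exact two-sided permutation test over the 70 ways of labelling the livers gave p = 0.0286, the smallest it can give, and p = 0.0571 after Benjamini-Hochberg adjustment over the 2 ratios tested. The comparison was framed with the *Igkc* difference in these livers already known. With *Ighd* and *Ighg1* added to the total it was -23.9 points, the wild-type shares spread wider, from 63.0% to 74.5% (68.8% ± 4.70, SD, n = 4), and the highest mutant share, 60.2%, came close to the lowest of them. Each interval is for a single liver and leaves out variation between mice. Reads made by PCR without molecular identifiers are not independent molecules, so the intervals may be too narrow even for counting error.

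The other classes divided the remainder. *Ighg2b* and *Ighg2c* together took 2.05%, 0.943%, 8.11% and 19.2% of heavy-chain reads in *Rragc*+/+ and 30.5%, 20.2%, 31.7% and 35.7% in *Rragc* S74N/+ livers. The lowest mutant share thus lay just above the highest wild-type share, that of replicate 4. The pair was put together after its values were seen, so no test is given for its means of 7.58% ± 8.37 and 29.5% ± 6.60 (SD, n = 4 each). *Ighm* took 25.1%, 26.4%, 19.8% and 5.91% in *Rragc*+/+ and 37.0%, 17.5%, 12.4% and 27.1% in *Rragc* S74N/+ livers, with overlapping ranges. Only in *Rragc* S74N/+ replicate 1 did *Ighm* exceed *Igha*.

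**Figure D2:**
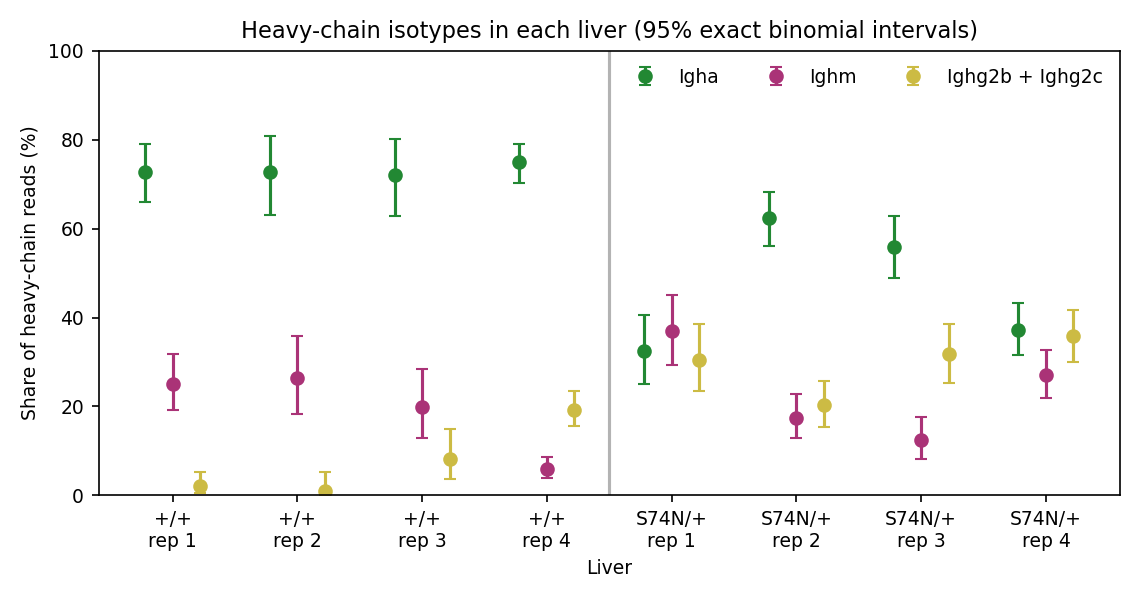
Share of heavy-chain reads (y axis, percent) taken by *Igha*, *Ighm* and the sum of *Ighg2b* and *Ighg2c* in each of the 8 livers (x axis); bars are 95% exact binomial intervals. *Igha* sits between 72.1% and 74.9% in the 4 *Rragc*+/+ livers and between 32.5% and 62.3% in the 4 *Rragc* S74N/+ livers.

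*Jchain*, the joining chain of polymeric IgM and IgA, had a mean under 10 and was not in the fit across genes. Its values were 7.46, 2.81, 9.90 and 4.67 normalized counts in *Rragc*+/+ and 6.43, 11.6, 14.5 and 12.2 in *Rragc* S74N/+ livers, from 3 to 15 reads each. A single mutant liver, replicate 1, fell within the wild-type range, and without it the genotypes were apart. That held for 2.26% of the tested genes, a set that leaves out *Jchain* and other genes of so low a mean. The means were 6.21 ± 3.12 and 11.2 ± 3.41 (SD, n = 4 each), and the log2 difference of 0.82 ± 0.40 (SE) gave p = 0.0857 in an exact two-sided permutation test. Per heavy-chain read, *Jchain* gave 0.0410, 0.0283, 0.0631 and 0.0123 reads in *Rragc*+/+ and 0.0455, 0.0516, 0.0644 and 0.0542 in *Rragc* S74N/+ livers. This ratio, the second of the 2 set as main tests, overlapped between genotypes (exact permutation p = 0.171, also 0.171 adjusted over the 2). The lowest ratio belonged to *Rragc*+/+ replicate 4, the liver with the most *Igha*.

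The heavy chains taken as a sum did not set the genotypes apart. The sum was 182, 99.1, 157 and 379 normalized counts in *Rragc*+/+ and 141, 224, 225 and 226 in *Rragc* S74N/+ livers, with means of 204 ± 122 and 204 ± 41.8 (SD, n = 4 each). The ranges overlapped, and a wild-type liver held the highest sum. The number of *Igkc* reads per heavy-chain read was 0.318, 0.472, 0.288 and 0.207 in *Rragc*+/+ and 0.766, 0.698, 0.584 and 0.744 in *Rragc* S74N/+ livers, and the genotypes were apart. That ratio contains *Igkc* and is given without a test. Even the mutant livers were read at fewer kappa than heavy-chain transcripts, and the counting of the 2 loci was not checked against the reads. With *Igha* left out, the heavy-chain sum was 53.9 ± 29.2 and 105 ± 25.2 (SD, n = 4 each), and its ranges overlapped through *Rragc*+/+ replicate 4.

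**Figure D3:**
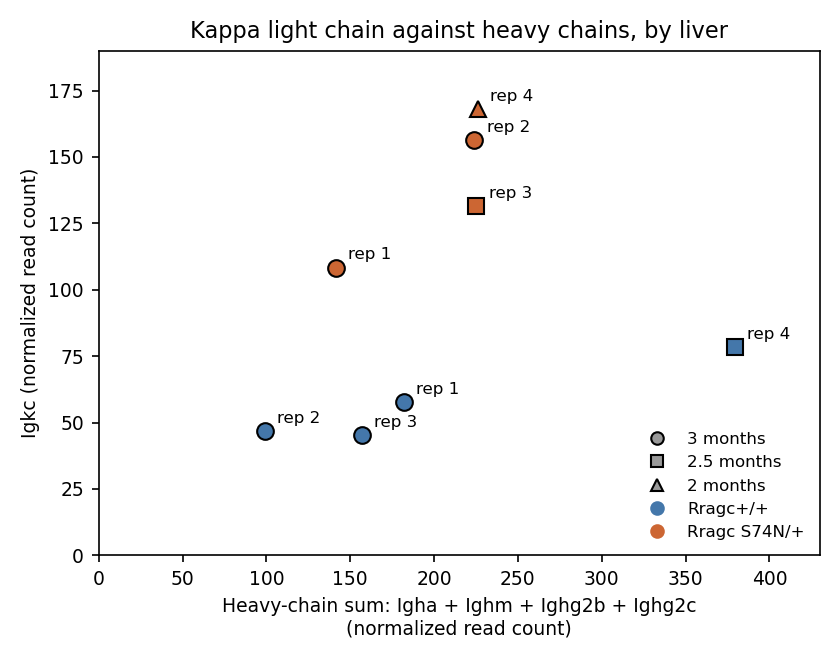
*Igkc* (y axis) against the sum of *Igha*, *Ighm*, *Ighg2b* and *Ighg2c* (x axis), both in normalized read counts, 1 point per liver, with symbols for age as labelled. The *Rragc* S74N/+ livers lie at 108 to 168 on the *Igkc* axis for heavy-chain sums of 141 to 226, and *Rragc*+/+ replicate 4 lies at 78.5 for a sum of 379.

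Across the 8 livers the genes did not rise and fall as 1 block. Over the 21 pairs of genes, Pearson's r on the log2 scale ran from -0.56 to 0.93 with a median of 0.29, and 18 pairs were positive. After the genotype means were subtracted, it ran from -0.60 to 0.92 with a median of 0.26 and 16 positive pairs. The highest pair in both was *Ighg2c* and *Ighg2b*, at 0.93 over the livers (Spearman's rho 0.71) and 0.92 within genotypes. *Igkc* had r = -0.05 with *Igha* over all livers and 0.80 within genotypes. *Igkc* against *Ighg2c* gave 0.84 over all livers and 0.51 within genotypes, and against *Ighm* 0.46 and -0.08. These coefficients rest on 8 points in 2 groups and share size factors, and they are descriptions.

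The genes most like *Igkc* over the 8 livers were not antibody genes. The 10 highest by Pearson's r, from 0.90 to 0.95, were *Cers6*, *D1Ertd622e*, *Crem*, *Nubpl*, *Cd2ap*, *Nudt21*, *Mob3c*, *Rbm4b*, *Prkca* and *Rtn4*. *Cers6*, a ceramide synthase, led with means of 10.3 and 25.6 normalized counts in *Rragc*+/+ and *Rragc* S74N/+ livers. Within genotypes the 10 highest, from 0.94 to 0.99, were *Borcs7*, *Lacc1*, *Lars*, *Pmvk*, *Adam10*, *AI506816*, *Fstl1*, *Zfp329*, *Tyms* and *Armcx2*, and no gene was in both sets. These coefficients were picked as the highest of all tested genes and carry no test.

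Of the other genes of plasma cells, 0 passed the test. Of 18 plasma cell markers, 13 were in the table and 8 had a mean of at least 10, with 4 differences above and 4 below 0 and a median log2 difference of 0.02, against 0.01 over all tested genes. *Mzb1*, a chaperone of antibody assembly, was read at 0.935 to 12.7 normalized counts per liver, with means of 6.22 ± 5.10 in wild-type and 5.83 ± 3.30 in mutant livers (SD, n = 4 each). *Prdm1* (the plasma cell regulator Blimp-1), *Pim2*, *Slamf7* and *Pou2af1* were also under a mean of 10, and *Tnfrsf17* and *Irf4* were not analysed here. *Sdc1* (syndecan-1), the most abundant of the list at 495 ± 33.1 and 722 ± 417 (SD, n = 4 each), is also made by hepatocytes, as are *Xbp1* and *Txndc5*. The summed level of the list ran from 1075 to 1613 in *Rragc*+/+ and from 825 to 2012 in *Rragc* S74N/+ livers. Most of it came from *Sdc1* and from *Xbp1*, at 415 ± 258 and 353 ± 203 (SD, n = 4 each), so it does not isolate plasma cells. The median leaves out *Mzb1* and the other markers under a mean of 10.

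B cell markers were mostly under a mean of 10. Of 23 genes, 18 were in the table and 5 were tested, 4 with a positive and 1 with a negative difference, with a median of 0.19 and 0 past the threshold. The most abundant was *Pou2f2*, a transcription factor, at 59.7 ± 27.9 in wild-type and 83.5 ± 59.0 in mutant livers (SD, n = 4 each). *Ms4a1* (CD20) lay at 1.41 to 14.7, *Cd79a* at 1.87 to 13.1 and *Cd79b* at 1.87 to 17.0, all overlapping between genotypes. The summed level ran from 192 to 274 in *Rragc*+/+ and from 165 to 387 in *Rragc* S74N/+ livers, and the part of B cells in the values of *Igkc* and *Ighg2c* was not tested.

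Signals that hold or attract antibody-secreting cells were followed over 20 genes, of which 9 were in the table and 7 tested, with a median log2 difference of 0.22 and 0 past the threshold. *Cxcl13*, the chemokine that draws B cells into follicles, was read at 9.32, 4.68, 12.7 and 0.934 in *Rragc*+/+ and at 26.6, 21.3, 20.1 and 13.9 in *Rragc* S74N/+ livers. The groups were apart by a narrow margin, with a log2 difference of 1.74 ± 0.65 (SE) that did not pass (limma adjusted p = 0.846), and this gene too reached the mean of 10 only through the mutant group. *Il6st*, the shared receptor chain of the interleukin-6 family, was also apart, at 466 ± 37.7 and 544 ± 38.1 (SD, n = 4 each; log2 difference 0.22 ± 0.18, SE; limma adjusted p = 0.846). Thus 2 of the 7 tested genes had all mutant livers higher, as did 1.30% of all tested genes. *Cxcl12*, the chemokine of plasma cell niches and the most abundant of the list, had means of 733 ± 88.1 and 940 ± 170 (SD, n = 4 each), which overlapped.

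Receptors that bind or carry antibodies showed no difference past the threshold. Of 13 genes, 12 were in the table and 10 tested, 5 with a positive and 5 with a negative difference, with a median of 0.03. *Pigr*, the receptor that carries polymeric IgA into bile, was read at 1748 ± 365 in wild-type and 1622 ± 541 in mutant livers (SD, n = 4 each), and *Asgr1*, a hepatocyte receptor for glycoproteins that lack sialic acid, was the most abundant at 3209 ± 1180 and 3507 ± 915 (SD, n = 4 each). Of 12 genes of class switching and germinal centres, 8 were tested with a median of 0.15, and the most abundant, *Aldh1a1*, is a retinaldehyde dehydrogenase of hepatocytes. Of 20 genes of the secretory pathway, 18 were tested, with a median of 0.08, 10 positive and 8 negative, and the chaperone *Hspa5* (BiP) was the most abundant at 4540 ± 1779 and 4297 ± 1176 (SD, n = 4 each). In both lists 0 genes passed the threshold.

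**Figure D4:**
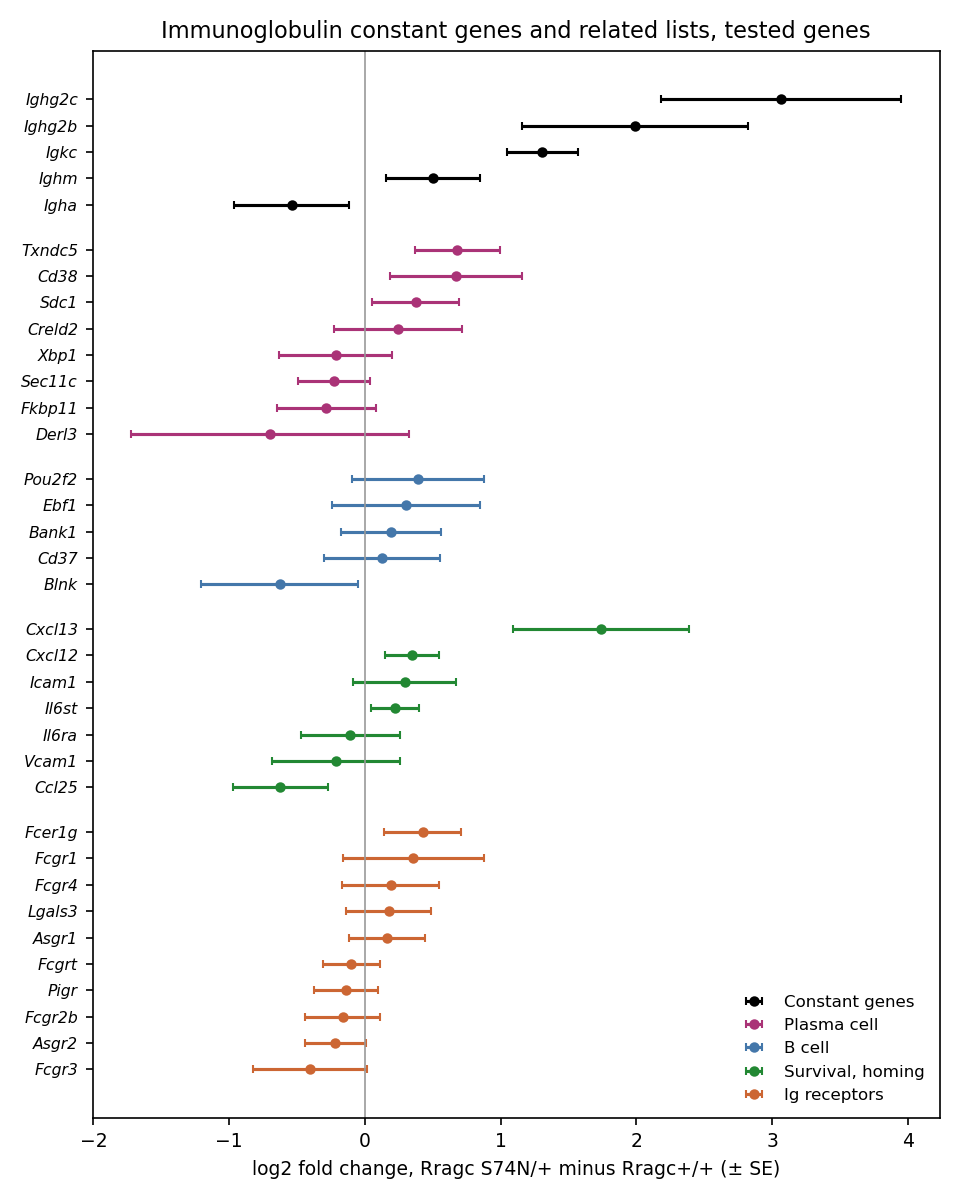
Log2 difference in log2(normalized count + 1), *Rragc* S74N/+ minus *Rragc*+/+ (x axis), with its SE from limma, for the tested genes among the antibody constant genes, plasma cell markers, B cell markers, survival and homing signals and immunoglobulin receptors (y axis, 1 gene per row). *Ighg2c* at 3.06, *Ighg2b* at 1.99 and *Cxcl13* at 1.74 lie farthest to the right, and the receptor genes lie around 0.

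Markers of other cells were set beside these values. All 10 pan-leukocyte genes were tested, 8 of them with a positive difference, which 5737 of all 11174 tested genes had. *Arhgdib* at -0.38 and *Cytip* at -0.15 were negative, the median was 0.36, and 0 passed. *Ptprc* (CD45) was at 82.5 ± 25.2 in wild-type and 119 ± 14.9 in mutant livers (SD, n = 4 each; limma unadjusted p = 0.0472, adjusted p = 0.846). Of all tested genes, 5.17% had an unadjusted limma p under 0.05. *Lcp1*, an actin-bundling protein of leukocytes, was the most abundant of the pan-leukocyte list. The summed level of the list was 551 to 668 in *Rragc*+/+ and 633 to 873 in *Rragc* S74N/+ livers. Of 11 Kupffer cell genes, 0 passed, with a median of 0.16, and *Csf1r* was the most abundant. *Marco*, a scavenger receptor, was apart between genotypes at 22.2 ± 2.33 and 88.9 ± 39.2 (SD, n = 4 each). It was 1 of the 11 with all mutant livers higher, as were 1.30% of all tested genes. T cell markers had 3 tested genes of 17, all with a positive difference and a median of 0.58, and *Icos* was the most abundant. *Cd4*, under a mean of 10, was apart in the other direction at 5.86 ± 3.66 and 0.279 ± 0.557 (SD, n = 4 each). Among the tested genes, which leave *Cd4* out, 183 of 11174 had all mutant livers lower. NK cell markers had 0 tested of 9, with *Nkg7* the most abundant. Of 7 plasmacytoid dendritic cell markers, 3 were tested, with a median of 0.43 and *Tcf4* the most abundant. Neutrophil markers had 2 tested of 10, with a median of -0.09 and *S100a8* the most abundant, and *Ly6g*, *Camp*, *Ngp*, *Mpo* and *Elane* were not analysed here. Erythroid markers, which follow retained blood, had a median of -0.12 over 5 tested genes. *Alas2*, the first enzyme of heme synthesis in red cells, was lower in every mutant liver (566 ± 120 and 390 ± 132, SD, n = 4 each), as in 183 of 11174 tested genes. *Hba-a2* was the most abundant, and the summed hemoglobin level was 7284 to 13563 in *Rragc*+/+ and 7366 to 13150 in *Rragc* S74N/+ livers. The labelled tissue showed in the 8 hepatocyte markers, led by *Alb* (albumin), which summed to 250899 to 357448 in wild-type and 273908 to 476136 in mutant livers, with a median difference of 0.39. No gene passed among hepatocyte, gut or pancreas markers. Of the gut and pancreas lists, 2 of 7 and 1 of 8 genes were tested, with medians of -0.10 and -0.94 and *Fabp2* and *Cela1* the most abundant. The part of these cells in the antibody transcript levels was not tested.

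The libraries held 4313076 to 6632108 reads in listed genes, of which 154 to 501 per liver came from the 7 antibody genes. *Rragc*+/+ replicate 3 had the fewest reads. Age was not balanced, since the 2-month mouse was *Rragc* S74N/+. Among the 3-month mice alone, *Igkc* was 45.3 to 57.8 in the 3 *Rragc*+/+ and 108 to 156 in the 2 *Rragc* S74N/+ livers, *Ighg2c* 0 to 4.24 and 19.3 to 24.0, and *Ighg2b* 0.935 to 8.49 and 21.3 to 23.9. *Ighg2c* and *Ighg2b* were thus apart at that age, but so few livers separate easily, and 10.2% of all tested genes were apart with the mutants higher. At 2.5 months there was 1 mouse of each genotype, with *Ighg2c* at 16.8 in *Rragc*+/+ and 32.3 in *Rragc* S74N/+. In each genotype the 3-month mice had the lower IgG2 levels, and age and mouse cannot be told apart there.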

How the data were processed

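RNA from whole liver of 8 mice, 4 of each genotype, was read from 3′ ends with a stranded kit. Per the labels and the study's methods, the authors checked reads with FastQC 0.11.7, aligned them to GRCm38 with TopHat2 2.0.10, Bowtie 1.0.0 and SAMtools 0.1.19, counted them by strand with HTSeq 0.6.1 against a GENCODE annotation and normalized them with DESeq. The values used here are the normalized counts as deposited, a signal scaled for each liver. Every value (100%, within 1e-06 of a read) was a whole multiple of 1 read's worth, so whole reads were recovered. Reads per liver in listed genes are not the full depth.

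Differences were fitted with limma 3.58.1 in R 4.3.3 on log2(normalized count + 1), with a variance trend. The model held genotype alone, 11174 genes with means of 10 or more entered it, and Benjamini-Hochberg adjustment covered all of them (threshold 0.05). As alternatives, the recovered reads went into the count tests of edgeR 4.0.16 and DESeq2 1.42.0. Fold changes of low genes on this scale depend on the pseudocount. For single values, livers were relabelled in an exact two-sided permutation test over the 70 labellings of the livers (scipy 1.17.1), whose smallest p is 0.0286. Shares have 95% exact binomial (Clopper-Pearson) intervals, and the floor for a count of 0 is 3 reads. The labels list separate samples with no further account of how animals were drawn. The p-values set a genotype difference against the spread between these livers, and limma also draws on the variances of all tested genes. The recovery of fold changes by the fit was checked on simulated data. The genes changed there had means above that of *Ighg2c*, so genes as low as *Ighg2c*, *Jchain* and *Iglc1* were not covered.

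The genes and lists were chosen with earlier results of these data known. Besides the 8 genes, the text names, of each list, genes past the threshold, genes whose genotypes do not overlap, the most abundant gene and defining markers at or near 0, the 10 genes most like *Igkc* over livers and within genotypes, and any gene the fit called; a few further genes of those lists were named after their values were seen. Sequences came from GENCODE M21 transcripts of GRCm38. The authors' normalization was kept, and other scalings, pseudocounts, filters and left-out livers were tried. Some genes of these lists are not reported here.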

Additional observations from a re-analysis of the deposited data

Results flagged for a closer look

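Among 30 groups of 4 livers examined over 15 values, 3 held a liver whose gap to its nearest neighbour took up most of the group's range (Dixon's test at 95%), where chance gives about 1.5. *Ighg2b* in *Rragc*+/+ replicate 4 was 56.1 normalized counts, against 0.935 to 8.49 in the other 3 livers of that genotype. The heavy-chain sum in *Rragc* S74N/+ replicate 1 was 141 normalized counts, against 224 to 226 in the others. *Rragc*+/+ replicate 3 had 4313076 reads in listed genes, against 6177759 to 6509465 in the other *Rragc*+/+ libraries.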

How the results depend on the processing

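Of 185 alternative values, 158 were classed as unchanged and 3 reversed. For tested differences and ratios, unchanged meant the same direction and the same side of the threshold. With 1 liver left out, or in 3-month-old mice alone, the exact test cannot fall under 0.05. There, only the direction could change for *Iglc1*, *Jchain* and *Jchain* per heavy-chain read, and their counts as unchanged say nothing of the threshold. For *Igkc*, which has no test, it meant a shift smaller than the SD of its log2 values in mutant livers. For numbers of genes, those classed as unchanged equalled the main number. The reversals all concerned *Iglc1*, whose log2 difference was 0.17 with a pseudocount of 5, 0.71 without *Rragc* S74N/+ replicate 1 and 0.11 without *Rragc* S74N/+ replicate 4 (-0.76 to 0.71 over the left-out livers), at 0 to 18 reads per liver. The number of genes past the threshold was 10 with DESeq2 (675 at an unadjusted p under 0.05), *Marco* among them, and 0 without the mean-variance trend (603), with age as a covariate (415) and in 3-month-old mice alone (641). It was 1 with edgeR (618). Leaving out 1 liver at a time gave 0 to 2, with 2 without *Rragc* S74N/+ replicate 3 (*Gpx3* and *Marco*) and 0 without any other liver (315 to 1690 unadjusted over the 8). The cause was not tested. No heavy-chain gene passed under any of these. The *Igha* share difference was -25.1 points in 3-month-old mice alone (exact p = 0.2, the smallest 3 against 2 allow) and -31.2 to -21.3 when 1 liver was left out (exact p = 0.0571, the smallest 3 against 4 allow). The number of antibody genes other than *Igkc* with genotypes apart, a repeat chosen after the data were seen, was 1 (*Ighg2c*, as in 1.30% of tested genes) and 1 to 2 with 1 liver left out: *Ighg2b* was added without *Rragc*+/+ replicate 4 (2.35% of tested genes) and *Jchain* without *Rragc* S74N/+ replicate 1 (2.26%). The number was 2 in 3-month-old mice alone (10.2%). *Jchain* had a mean under 10, so these shares of tested genes leave it out. The log2 difference of *Ighg2c* ran from 1.84 to 4.76 and that of *Ighg2b* from 0.99 to 2.41 over the other alternatives, with the lowest *Ighg2b* value from edgeR. No paired analysis was possible because numbers given in sample order pair no mice. Depth limits *Iglc1*, *Jchain* and *Ighg2c* most.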
